A study of Mus musculus with 22 samples.

Results

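The 9 transcripts described here are textbook targets of the glucocorticoid receptor: Fkbp5, Sgk1, Tsc22d3, Klf9, Zbtb16, Errfi1, Pdk4, Sult1a1 and Cdkn1a. They were taken by symbol from the 39056 genes of the count table, and all 9 were among the 14072 genes with enough reads to test. The genes were chosen by their known regulation and with the differences between treated and Control libraries of these same samples already seen, so each member's difference from saline is given below as a description, with no p-value of its own. Counts of members past a threshold in those contrasts describe the genes that were chosen and support nothing. The samples were prefrontal cortex (PFC) of 11 male transgenic mice aged 8 to 12 weeks on a C57BL/6J background, all of which carried EGFP-Rpl10a, a tagged ribosomal protein, switched on by a tetracycline transactivator under the CaMKIIα promoter. Control mice (n = 3) received saline, EtOH mice (n = 4) received ethanol to 2 g/kg per day, and EtOH + ABT-888 mice (n = 4) received the same ethanol and, on day 4 alone, ABT-888, an inhibitor of poly(ADP-ribose) polymerase, at 25 mg/kg. Injections were intraperitoneal, 2 per day and 2 h apart for 4 days, and tissue was taken 2 h after the last of them. Each mouse gave a TRAP library, the RNA pulled down with the tagged ribosomes, and a total-RNA library from the same homogenate, which makes 22 libraries. Mice 1, 4 and 7 were Control, mice 2, 5, 8 and 9 EtOH, and mice 3, 6, 10 and 11 EtOH + ABT-888. Values by mouse are listed in that order throughout.

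The glucocorticoid receptor, encoded by Nr3c1, rests in the cytoplasm in a complex with the chaperone Hsp90. Corticosterone, the main stress hormone of the mouse, releases it to the nucleus, where pairs of receptors bind a palindrome of AGAACA half-sites and raise transcription soon after. Brain, liver, muscle and immune cells share a core of such targets, in neurons as well as in astrocytes, oligodendrocytes and vessels. Some of them act back on the receptor, and others act on metabolism, growth factor signalling and the cell cycle.

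Promoter windows of RefSeq on build GRCm38.p6, from 250 bases before to 50 after a start site, were searched on both strands for 3 forms of this element, because it is what ties a gene most directly to the receptor. Windows were found for 8 of the 9 members, 17 windows in all. The full palindrome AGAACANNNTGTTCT, in which N is any base, was in 3 of 32851 windows (0.00913%), 1 of them a window of Sgk1. The others, named here after the search, belonged to Acnat2 and Gm35041. A shorter palindrome, GNACANNNTGTNC, was in 0.475% of all windows and, among the members, in the same place of Sgk1 alone. The half-site AGAACA, which is part of the full palindrome, was in a window of 21.3% of all genes and of 3 of the 8 members with windows, Sgk1, Sult1a1 and Tsc22d3. The sequences around the full palindrome of Sgk1 and around the half-sites of the other genes are shown 5′ to 3′ along the strand of the gene, with the matched bases in capitals.
Sgk1, chr10:21993681-21993735, plus strand, palindrome starting 189 bases before a start site and inside an intron of the longest gene model: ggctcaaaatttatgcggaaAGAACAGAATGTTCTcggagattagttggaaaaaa
Tsc22d3, chrX:140600682-140600727, minus strand, half-site 185 bases before a start site and outside the gene: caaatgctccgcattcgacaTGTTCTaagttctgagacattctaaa
Sult1a1, chr7:126676427-126676472, minus strand, half-site 34 bases before a start site and outside the gene: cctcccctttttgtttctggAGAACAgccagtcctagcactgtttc
Sult1a1, chr7:126676605-126676650, minus strand, half-site 212 bases before a start site and outside the gene: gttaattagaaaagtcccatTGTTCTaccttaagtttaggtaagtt
A match is a description of the letters, and windows of this length leave out elements that lie further away.

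TRAP libraries held 6570957 to 22002618 counted reads and total-RNA libraries 22132534 to 32421392, with the smallest from mouse 6. Levels are given as CPM, counts scaled to the library total after TMM correction, so a low level such as that of Pdk4 in TRAP rests on as few as 12 reads. The label of the pulled-down cells was checked against markers. In Control mice all 6 markers each of astrocytes, oligodendrocytes, microglia and vessels were lower in TRAP than in total-RNA. Of 5 markers of excitatory neurons, however, 4 were also lower in TRAP and Camk2a did not differ (log2 -0.17, adjusted p = 0.203), while the 6 markers of inhibitory neurons went different ways. Gad1, Gad2 and Slc32a1 were higher, by log2 1.24, 1.12 and 2.52, Pvalb was lower, at log2 -2.36 (adjusted p = 1.03e-06 by edgeR), and Vip (log2 -0.997, adjusted p = 0.0960) and Sst (log2 -0.06, adjusted p = 0.831) did not pass. The TRAP libraries were thus depleted of glial and vascular RNA and not enriched for these excitatory markers.

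In the cortex of the saline-injected Control mice the members covered a wide range of levels. Per kilobase of exon, Klf9, a zinc finger transcription factor, was the most abundant in both pools, at 110.4 ± 13.8 reads per kilobase and CPM unit (RPKM, mean ± SD, n = 3) in Control_TRAP and 57.7 ± 2.37 in Control_total-RNA. Sgk1 (14.98 ± 1.10 RPKM), Errfi1 (10.0 ± 1.01), Fkbp5 (8.42 ± 0.961), Tsc22d3 (7.20 ± 1.07), Zbtb16 (3.94 ± 1.29), Cdkn1a (3.33 ± 0.817), Sult1a1 (0.498 ± 0.138) and Pdk4 (0.468 ± 0.224) followed in Control_TRAP. Of these neighbours, Errfi1 and Fkbp5, Fkbp5 and Tsc22d3, Zbtb16 and Cdkn1a, and Sult1a1 and Pdk4 overlapped over the mice. In Control_total-RNA the order after Klf9 was Tsc22d3 (14.3 ± 1.90 RPKM), Zbtb16 (12.8 ± 0.698), Sgk1 (11.9 ± 1.16), Errfi1 (8.33 ± 0.439), Sult1a1 (6.35 ± 2.44), Cdkn1a (4.18 ± 0.408), Fkbp5 (3.31 ± 0.533) and Pdk4 (2.84 ± 0.353). Here Tsc22d3 and Zbtb16, Zbtb16 and Sgk1, Errfi1 and Sult1a1, Sult1a1 and Cdkn1a, and Fkbp5 and Pdk4 overlapped. Fkbp5 ranked the fourth of the 9 in TRAP and the eighth in total-RNA.

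All 9 transcripts were higher in EtOH_total-RNA than in Control_total-RNA, by between 1.48-fold (Klf9) and 4.03-fold (Cdkn1a). In every case each of the 4 EtOH libraries lay above each of the 3 Control libraries. In TRAP the estimates were smaller for all 9, and Fkbp5 was 2.04-fold and Sgk1 1.94-fold its Control level. The plot of counts by library shows both pools.

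**Figure D1:**
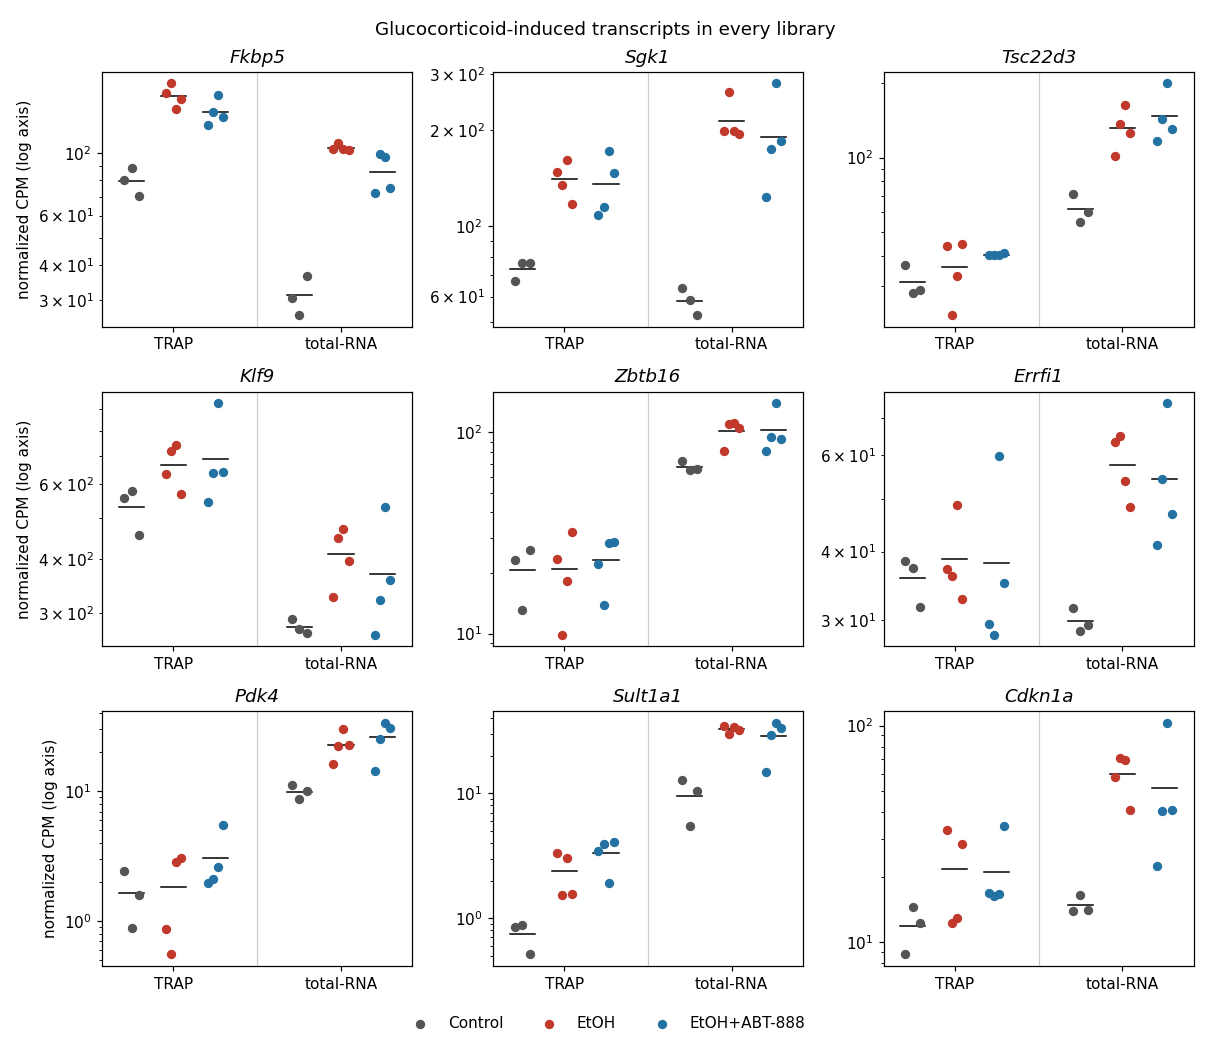
Normalized CPM (log axis) of the 9 transcripts in each of the 22 libraries, by RNA pool and treatment; each point is a mouse and each bar the group mean. In total-RNA the EtOH points (red) lie above the Control points (grey) in all 9 panels, whereas in TRAP they do so for Fkbp5, Sgk1 and Sult1a1.

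Fkbp5 encodes a co-chaperone that binds the receptor complex and lowers its affinity for hormone, a short feedback loop (chr17:28399094-28517527 of mm10, minus strand). In total-RNA it was at 30.7, 26.6 and 36.6 CPM in Control, 103, 108, 104 and 102 CPM in EtOH and 72.0, 99.7, 97.1 and 75.2 CPM in EtOH + ABT-888 mice. The EtOH mice lay close together, and the highest of the mice given ABT-888 was below the lowest EtOH mouse. In TRAP the levels were 80.5, 88.5 and 70.3 CPM in Control, 164, 177, 144 and 156 CPM in EtOH and 126, 140.4, 160.4 and 134 CPM in EtOH + ABT-888 mice. Both treated groups were clear of Control. The log2 fold change of EtOH over Control was 1.74 (standard error 0.12) in total-RNA and 1.03 (standard error 0.15) in TRAP. With ABT-888 it was 1.46 (standard error 0.17) and 0.83 (standard error 0.16).

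Sgk1, a kinase that retains ion channels and transporters at the cell surface and is a rapid target in many tissues, carries the full palindrome shown above (gene at chr10:21882184-21999903, plus strand). Its total-RNA level was 63.9, 58.5 and 52.5 CPM in Control, 199, 264, 199 and 195 CPM in EtOH and 123, 175, 281 and 185 CPM in EtOH + ABT-888 mice. No treated mouse came near the Control range, and mice 5 and 10 were well above the others. TRAP gave 67.2, 76.4 and 76.7 CPM in Control, 148, 135, 161 and 117 CPM in EtOH and 108, 115, 173 and 146 CPM in EtOH + ABT-888 mice, again without overlap. Log2 fold changes against Control were 1.88 (standard error 0.13) for EtOH and 1.72 (standard error 0.24) for EtOH + ABT-888 in total-RNA. In TRAP they were 0.95 (standard error 0.15) and 0.90 (standard error 0.19).

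Tsc22d3 encodes GILZ, a leucine zipper protein through which glucocorticoids restrain inflammatory transcription (chrX:140539528-140600659, minus strand). In total-RNA it was at 71.0, 54.9 and 60.1 CPM in Control, 102, 136, 164 and 126 CPM in EtOH and 116, 143, 199.9 and 131 CPM in EtOH + ABT-888 mice. Every treated mouse was above every Control mouse there. In TRAP it was at 36.6, 28.1 and 29.1 CPM in Control, 43.7, 22.98, 33.1 and 44.6 CPM in EtOH and 40.1, 40.1, 40.4 and 40.9 CPM in EtOH + ABT-888 mice. The EtOH_TRAP mice ran from below the lowest to above the highest Control mouse, while the mice given ABT-888 were almost identical to each other and all above Control. The log2 fold change of EtOH was 1.09 (standard error 0.15) in total-RNA and 0.22 (standard error 0.22) in TRAP, and that of EtOH + ABT-888 was 1.25 (standard error 0.19) and 0.38 (standard error 0.18).

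The members that are transcription factors, Klf9 (chr19:23141226-23168134, plus strand) and Zbtb16 (chr9:48654297-48836222, minus strand), changed the least in total-RNA. Klf9, which stress hormones induce in neurons, was at 290.5, 275 and 268 CPM in Control, 327, 450.0, 472 and 398 CPM in EtOH and 267, 320.5, 531 and 358 CPM in EtOH + ABT-888 mice in total-RNA. Mouse 3 lay just below the lowest Control mouse, and mouse 10 highest of all. TRAP levels of Klf9 were 558, 581 and 456 CPM in Control, 634, 718, 744 and 569 CPM in EtOH and 544, 637, 931 and 642 CPM in EtOH + ABT-888 mice, and both treated groups overlapped Control. Its log2 fold change for EtOH was 0.57 (standard error 0.12) in total-RNA and 0.35 (standard error 0.15) in TRAP. Zbtb16 encodes PLZF, a repressor with zinc fingers and a BTB domain. It was at 71.7, 65.0 and 65.6 CPM in Control, 80.5, 109, 111 and 106 CPM in EtOH and 80.8, 94.8, 139.8 and 93.2 CPM in EtOH + ABT-888 mice in total-RNA, with no treated mouse inside the Control range. TRAP showed no such separation, with 23.3, 13.1 and 26.1 CPM in Control, 23.4, 9.89, 18.2 and 31.9 CPM in EtOH and 22.1, 13.8, 28.1 and 28.5 CPM in EtOH + ABT-888 mice. The log2 fold change of Zbtb16 for EtOH was 0.60 (standard error 0.13) in total-RNA and 0.01 (standard error 0.34) in TRAP.

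Errfi1 and Cdkn1a act on growth and division. Errfi1 (chr4:150853919-150868892, plus strand) encodes MIG6, an inhibitor of the epidermal growth factor receptor. It was at 31.6, 28.6 and 29.3 CPM in Control, 63.4, 64.9, 53.8 and 48.2 CPM in EtOH and 41.2, 54.3, 74.7 and 46.9 CPM in EtOH + ABT-888 mice in total-RNA, and all treated mice were above Control. In TRAP it was at 38.5, 37.3 and 31.7 CPM in Control, 37.3, 36.2, 48.6 and 32.8 CPM in EtOH and 29.5, 28.2, 59.9 and 35.1 CPM in EtOH + ABT-888 mice, with wide overlap. Its log2 fold change for EtOH was 0.95 (standard error 0.12) in total-RNA against 0.13 (standard error 0.18) in TRAP. Cdkn1a (chr17:29090976-29100727, plus strand) encodes p21, an inhibitor of cyclin-dependent kinases that p53 also induces. Among the 9 transcripts it had the largest change of EtOH in total-RNA, from 13.9, 16.5 and 14.1 CPM in Control to 57.9, 70.7, 69.4 and 40.6 CPM in EtOH and 22.4, 40.1, 103 and 40.5 CPM in EtOH + ABT-888 mice. Mouse 3 was the closest to Control, and mouse 10 the farthest from it. TRAP levels were 8.75, 14.5 and 12.2 CPM in Control, 33.0, 12.2, 12.9 and 28.4 CPM in EtOH and 16.9, 16.2, 16.7 and 34.1 CPM in EtOH + ABT-888 mice, where mice 2, 9 and 11 stood apart from the rest. The log2 fold change of Cdkn1a for EtOH was 2.01 (standard error 0.18) in total-RNA and 0.87 (standard error 0.35) in TRAP. Over 273 bases its exons overlap the opposite-strand gene AC167363.2, and the strand setting of the counting is not named.

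Pdk4 and Sult1a1 act in metabolism. Pdk4 (chr6:5483351-5496309, minus strand) encodes a mitochondrial kinase that turns off pyruvate dehydrogenase and so spares glucose. It was at 11.2, 8.74 and 9.99 CPM in Control, 16.3, 22.2, 30.5 and 22.7 CPM in EtOH and 14.3, 25.5, 33.8 and 30.7 CPM in EtOH + ABT-888 mice in total-RNA, and the Control range held no treated mouse. In TRAP it was barely counted, at 2.45, 0.886 and 1.59 CPM in Control, 0.873, 0.557, 2.85 and 3.06 CPM in EtOH and 1.97, 2.10, 2.64 and 5.55 CPM in EtOH + ABT-888 mice, and the groups overlapped. The log2 fold change for EtOH was 1.20 (standard error 0.20) in total-RNA and 0.20 (standard error 0.65) in TRAP. Sult1a1 (chr7:126672865-126676432, minus strand), a sulfotransferase for small phenols, was at 12.7, 5.53 and 10.5 CPM in Control, 34.6, 29.9, 33.8 and 32.2 CPM in EtOH and 14.97, 29.6, 36.9 and 33.4 CPM in EtOH + ABT-888 mice in total-RNA. All treated mice were above Control, with mouse 3 the closest. Although scarce in TRAP, it separated there as well, at 0.854, 0.886 and 0.512 CPM in Control, 3.35, 1.53, 3.05 and 1.56 CPM in EtOH and 3.44, 3.90, 1.90 and 4.05 CPM in EtOH + ABT-888 mice. Its log2 fold change for EtOH was 1.77 (standard error 0.22) in total-RNA and 1.67 (standard error 0.53) in TRAP. The TRAP value has a 95% interval of 0.53 to 2.82 and rests on 8, 16 and 9 reads in the Control libraries. Over 61 bases its exons overlap Sgf29 on the opposite strand.

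Set against the whole table, the quasi-likelihood test of edgeR, with p-values adjusted by Benjamini-Hochberg over all 14072 genes, put all 9 transcripts among those higher in EtOH_total-RNA at an adjusted p-value under 0.05, as it did 9.04% of all genes, and 14.7% of all genes had every EtOH library above every Control library. The median log2 fold change was 1.20 over the 9 and 0.00 over all genes. Klf9 left this group without the Control_total-RNA library of mouse 4, when 461 of all genes were called higher. Klf9, Pdk4 and Zbtb16 left it when a single model was fitted to all 22 libraries, which called 6 of the 9 and 105 of all 14072 genes higher. In EtOH_TRAP 2 of the 9, Fkbp5 and Sgk1, were called higher (2.77% of all genes were), 3 did not overlap Control (10.4% of all genes), and the median log2 fold change was 0.35 against 0.02 over all genes. Sgk1 was not called without the Control_TRAP library of mouse 1, when 58 of all genes were called higher. Sult1a1 was the third gene called with exactTest (723 of all genes were higher), DESeq2 (831) and the model of all libraries (583). These counts follow from contrasts that were known when the genes were listed.

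With ABT-888 given on day 4, the transcripts stayed above Control on average. In EtOH + ABT-888_total-RNA the median log2 fold change over Control was 1.39, 8 of 9 did not overlap Control (8.29% of all genes had every such library above Control), and Klf9 was the one that did. Fkbp5, Sgk1 and Tsc22d3 were called higher, as were 0.178% of all genes. Calls over the whole table moved with single libraries, and the members' with them. The count was 8 without the library of mouse 3 (440 of all 14072 genes were then called higher) and 6 without that of mouse 10 (136 genes). Without the Control library of mouse 1, 4 or 7 or that of mouse 6 or 11 it was 0, as it was for all genes. It was 8 with exactTest (343 genes), with DESeq2 (393) and with no filter on low counts (347 of 29246). When 1 library was left out the log2 fold change stayed between 1.35 and 1.59 for Fkbp5, 1.47 and 1.88 for Sgk1 and 1.07 and 1.36 for Tsc22d3. In TRAP the median was 0.83, 5 of 9 did not overlap (6.23% of all genes), and edgeR called 0 higher (0.185% of all genes). An unadjusted p-value under 0.05 was found for 5 of the 9 and for 1696 of all 14072 genes. Fkbp5 and Sgk1 were called without mouse 3 (173 of all genes were higher), and Fkbp5, Sgk1 and Sult1a1 without mouse 10 (77), with exactTest (143), with DESeq2 (219) and in the model of all libraries (217). The plot of fold changes places both treatments side by side. They share the same Control libraries.

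**Figure D2:**
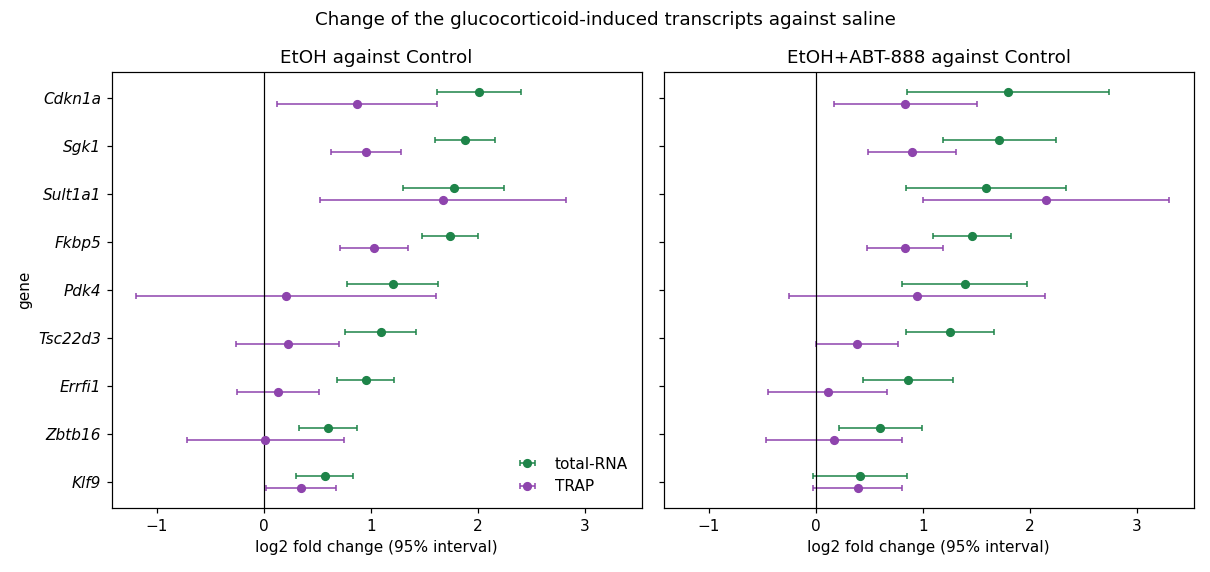
Log2 fold change against Control with its 95% interval for EtOH (left) and EtOH + ABT-888 (right), in total-RNA (green) and TRAP (purple). The total-RNA points lie to the right of the TRAP points for all genes with EtOH, from 0.57 for Klf9 to 2.01 for Cdkn1a, and with ABT-888 for all but Sult1a1.

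EtOH + ABT-888 was also compared with EtOH alone, whose libraries enter the contrasts above as well, so genes chosen with a rise in EtOH known lean to lower values here. By edgeR 0 of the 9 transcripts and 0 of all 14072 genes (0.0%) were called in either pool, and DESeq2 and exactTest called 0 of the 9, while each called 0 of all genes in TRAP and 2 in total-RNA. Unadjusted p-values under 0.05 were found for 136 genes and 0 of the 9 in TRAP and for 269 genes and 1 of the 9 in total-RNA, from which nothing is read. Fkbp5 in total-RNA had a log2 difference of -0.28 (95% interval -0.56 to -0.00). The intervals state how large a difference these data allow. For the closely measured transcripts they were -0.45 to 0.34 for Sgk1 and -0.35 to 0.44 for Klf9 in TRAP, and -0.62 to 0.28 for Sgk1, -0.23 to 0.56 for Tsc22d3 and -0.37 to 0.38 for Zbtb16 in total-RNA. They were wide for Cdkn1a in total-RNA (-1.0 to 0.58) and for Pdk4 in TRAP (-0.54 to 2.03). Over the 9 transcripts the log2 difference ran from -0.20 (Fkbp5) to 0.74 (Pdk4) in TRAP and from -0.28 (Fkbp5) to 0.19 (Pdk4) in total-RNA.

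Mice of a group did not respond alike. In EtOH + ABT-888_total-RNA mouse 10 had the highest level of 8 of the 9 transcripts and mouse 3 the lowest of all 9, with medians of log2 1.69 and 0.59 over the Control mean. Mice 6 and 11 lay between them, at 1.36 and 1.27. In EtOH_total-RNA mice the median ran from 1.09 (mouse 2) to 1.61 (mouse 8), and 9 of 9 transcripts were above the Control mean in each. In TRAP mouse 5 had the lowest level of 5 of the 9 transcripts in its group, at a median of log2 0.04 over Control, and its summed markers were the lowest of the group for astrocytes (43.7 CPM), oligodendrocytes (144.7), microglia (4.92) and vessels (4.27). Mouse 2, with the highest sums (207, 429, 41.9 and 31.3 CPM), had the highest Cdkn1a and Sult1a1 of its group in TRAP. Mouse 11, with the highest oligodendrocyte sum (865 CPM) of all TRAP libraries, had the highest level of 5 of the 9, Pdk4 and Cdkn1a included. Mouse 3 had the highest astrocyte (174 CPM), microglia (41.9) and vessel (25.2) sums of that group in TRAP. It had the highest level of 0 of the 9 and the lowest of 4. Mouse 10, with the lowest astrocyte (68.9 CPM) and microglia (5.96) sums of the group, had the highest level of 4. The part of other cells in these TRAP values was not tested. The map of levels relative to saline shows these mice column by column.

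**Figure D3:**
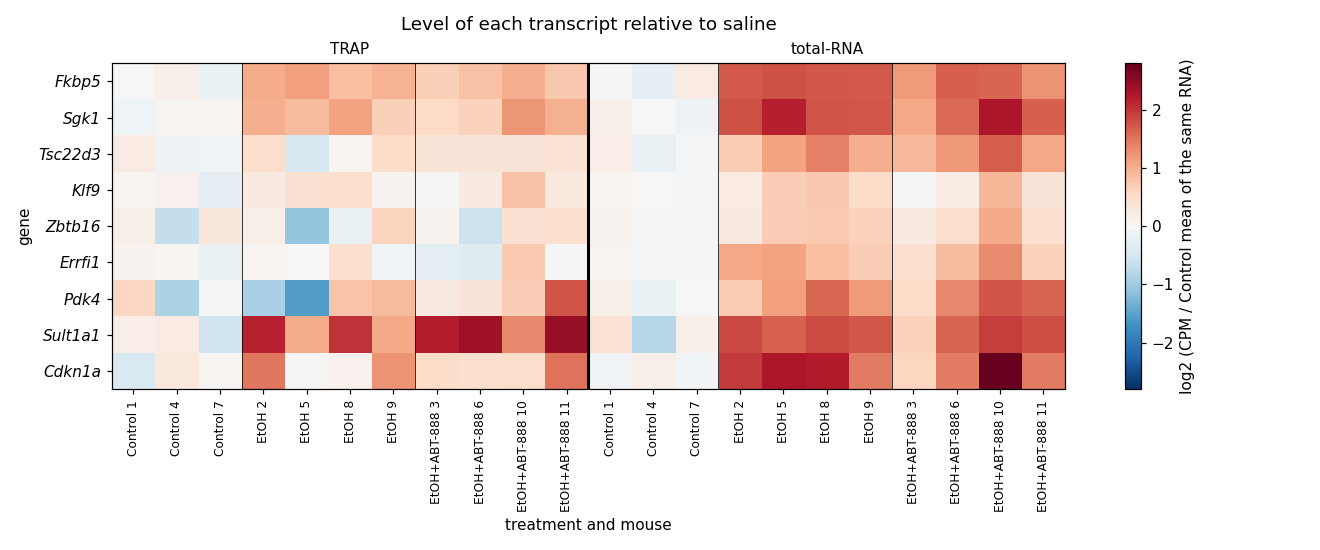
Log2 of each transcript's CPM over the Control mean of the same RNA pool (colour scale, red higher and blue lower), with genes in rows and the 22 libraries in columns by pool, treatment and mouse. Columns of EtOH total-RNA are red throughout, and that of mouse 3 is the palest and that of mouse 10 the darkest of the treated total-RNA libraries. Treated TRAP columns are red for Fkbp5, Sgk1 and Sult1a1 and vary over the other genes. The TRAP column of mouse 10 is red throughout.

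Markers of other cells were summed in the same total-RNA libraries, beside which the differences in the 9 transcripts stand. The sums of microglia were 247 to 259 CPM in Control, 94.5 to 149 CPM in EtOH and 85.6 to 199 CPM in EtOH + ABT-888 mice, and 4 of the 6 were called lower in EtOH. Astrocyte sums were 1024 to 1087, 1004 to 1189 and 915 to 1117 CPM in the same groups, and vessel sums 97.5 to 123, 76.8 to 112 and 86.6 to 128 CPM. Oligodendrocyte sums were 1860 to 2028, 1582 to 2168 and 1152 to 2533 CPM. With EtOH 1 of the 6 astrocyte markers was called higher and 1 lower, 2 vessel markers lower and 2 oligodendrocyte markers higher. Of all 14072 genes, 9.04% were called higher and 1210 genes lower there. The inhibitory neuron sums did not overlap between Control (802 to 865 CPM) and EtOH mice (915 to 1004 CPM), where 1 of the 6 markers was called higher, and were 701 to 862 CPM in EtOH + ABT-888 mice. Of single genes, 14.7% had every EtOH library above every Control library in total-RNA. Excitatory neuron sums were 2988 to 3653, 3311 to 3782 and 3402 to 4031 CPM, with 2 of the 5 markers called lower in EtOH and 1 in EtOH + ABT-888 mice. In EtOH + ABT-888 mice 12 of all 14072 genes were called lower in total-RNA. Fewer cells of a type and less RNA per cell cannot be told apart in these bulk samples. In TRAP 0 of the 6 astrocyte, oligodendrocyte and vessel markers were called in either treatment and 1 microglia marker was lower with EtOH, while of the 5 excitatory markers 1 was called lower with EtOH and 2 with EtOH + ABT-888, at medians of log2 -1.10 and -1.08 over the 5. Their sum did not fall with these medians, at 2353 to 2612 CPM in Control, 2481 to 3205 CPM in EtOH, where 3 of the 4 mice were above every Control mouse, and 2188 to 3191 CPM in EtOH + ABT-888 mice. Inhibitory neuron sums in TRAP were 1827 to 1913, 1666 to 2291 and 1656 to 1966 CPM, with 0 of 6 called. Their part in the differences of the 9 transcripts was not tested.

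How the transcripts divide between ribosomes and the whole tissue was compared within each treatment. The libraries are those in which the differences from saline were known when the genes were chosen, and a known low total-RNA level in Control or high level in treated mice lies in the denominator, so the values are a description and no p-values are given. In Control mice Fkbp5 was 2.52-fold higher in TRAP than in total-RNA, Klf9 1.89-fold and Sgk1 1.25-fold, whereas Tsc22d3, Zbtb16, Pdk4 and Sult1a1 were lower. Of the 9, edgeR called 3 higher (29.5% of all genes were) and 4 lower (30.4%). Log2 differences were 1.33 (standard error 0.13) for Fkbp5, 0.92 (standard error 0.10) for Klf9 and 0.32 (standard error 0.10) for Sgk1. Among the lower ones Tsc22d3 had a log2 difference of -1.01 (standard error 0.13), Zbtb16 -1.72 (standard error 0.20), Pdk4 -2.70 (standard error 0.30) and Sult1a1 -3.70 (standard error 0.38). Errfi1 had 0.25 (standard error 0.11) and Cdkn1a -0.32 (standard error 0.18), and neither was called. Over the same libraries the 6 astrocyte markers had a median of -3.35, the 6 oligodendrocyte markers -3.10, the microglia markers -3.63 and the vessel markers -3.33. Sult1a1 and Pdk4 fell in or near the range of these genes. Neuronal markers were spread more widely, from -2.36 (Pvalb) and -2.23 (Neurod6) to 2.52 (Slc32a1). The part of other cells in these differences was not tested. The call of Sgk1 was lost without the Control_total-RNA library of mouse 4 or 7 and in the model of all libraries, while Errfi1 was called without the Control_TRAP library of mouse 7 and Cdkn1a without that of mouse 4.

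In EtOH mice Fkbp5 and Klf9 were also higher in TRAP, by log2 0.60 (standard error 0.11) and 0.68 (standard error 0.14), and the other 7 were lower, Sgk1, Errfi1 and Cdkn1a among them. Sgk1 had a log2 difference of -0.63 (standard error 0.14), Errfi1 -0.59 (standard error 0.16) and Cdkn1a -1.49 (standard error 0.32). Tsc22d3, Zbtb16, Pdk4 and Sult1a1 had log2 differences of -1.89, -2.31, -3.66 and -3.80. By edgeR 2 of the 9 were called higher and 7 lower, beside 24.3% and 26.5% of all genes. In EtOH + ABT-888 mice Fkbp5 (0.70 (standard error 0.16)) and Klf9 (0.90 (standard error 0.23)) were higher in TRAP and Tsc22d3 (-1.87 (standard error 0.18)), Zbtb16 (-2.13 (standard error 0.25)), Pdk4 (-3.06 (standard error 0.38)), Sult1a1 (-3.13 (standard error 0.34)) and Cdkn1a (-1.29 (standard error 0.42)) lower, where 19.5% of all genes were higher and 21.5% lower. These 7 were called. Sgk1 (-0.49) and Errfi1 (-0.50) were called lower only once the mouse entered as a replicate block, in the model of all libraries, and without the total-RNA library of mouse 3 (Sgk1) or the TRAP library of mouse 10 (Errfi1), whereas the call of Cdkn1a was lost without the TRAP library of mouse 3, 6 or 10 or the total-RNA library of mouse 10. These counts are a description of genes chosen with their levels known.

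Mouse by mouse, the ratio of TRAP to total-RNA CPM was lower in all treated than in all Control mice for 4 of the 9 transcripts, as the plot of ratios shows. The ratios set against Control restate the changes in each pool that were known when the genes were chosen, and genes with a known rise in total-RNA lean to lower ratios, so nothing is read from this count. Fkbp5 ratios were 2.62, 3.33 and 1.92 in Control, 1.58, 1.63, 1.38 and 1.53 in EtOH and 1.75, 1.41, 1.65 and 1.78 in EtOH + ABT-888 mice. For Sgk1 they were 1.05, 1.30 and 1.46 in Control, 0.744, 0.511, 0.813 and 0.601 in EtOH and 0.881, 0.656, 0.614 and 0.791 in EtOH + ABT-888 mice. Sgk1 RNA was thus more abundant in TRAP than in total-RNA of every Control mouse and less abundant in every treated mouse. Tsc22d3 ratios were 0.515, 0.512 and 0.483 in Control, 0.431, 0.168, 0.202 and 0.355 in EtOH and 0.345, 0.280, 0.202 and 0.313 in EtOH + ABT-888 mice. Errfi1 ratios were 1.22, 1.30 and 1.08 in Control, 0.588, 0.557, 0.904 and 0.682 in EtOH and 0.717, 0.520, 0.802 and 0.748 in EtOH + ABT-888 mice, on either side of 1 as with Sgk1. Ratios of all EtOH mice lay below all Control mice for 6.69% of all genes, and those of all EtOH + ABT-888 mice for 5.39%. By contrast the ratio of Sult1a1 was 0.0488 to 0.160 in Control and 0.0486 to 0.0968 in EtOH mice, and that of Klf9 1.70 to 2.11 and 1.43 to 1.94.

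**Figure D4:**
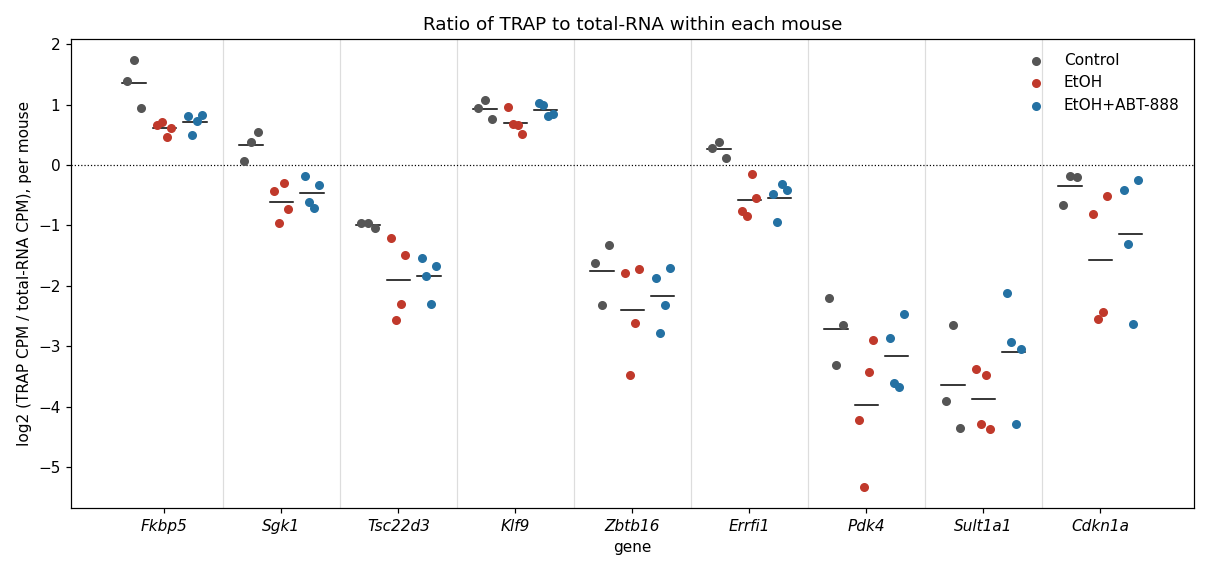
Log2 ratio of TRAP to total-RNA CPM within each mouse for the 9 transcripts, by treatment; points are mice, bars are means and the dotted line marks equal levels. Control points (grey) lie above all treated points for Fkbp5, Sgk1, Tsc22d3 and Errfi1, and Pdk4 and Sult1a1 lie lowest.

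The difference between the pools in the response was then fitted as an interaction over all 22 libraries. It is the difference of the changes from Control that were known when the genes were chosen, and genes chosen for a rise in total-RNA lean to negative values here, so the members' values are a description. The estimated change with EtOH was smaller in TRAP than in total-RNA for all 9 transcripts, with a median of -0.83 on the log2 scale (0.00 over all genes), and with EtOH + ABT-888 for 8 of 9, with a median of -0.64 (0.01 over all genes). By edgeR 0 of the 9 passed the adjusted threshold with either treatment. The interaction with EtOH was -0.73 for Fkbp5 (95% interval -1.14 to -0.33), -0.94 for Sgk1 (-1.54 to -0.34), -0.88 for Tsc22d3 (-1.48 to -0.27) and -0.83 for Errfi1 (-1.49 to -0.18). An unadjusted p-value under 0.05 was found for 4 of the 9 and for 685 of 14072 genes, from which nothing is read, and 3 genes (0.0213%) were called. With the mouse as a replicate block the test called 14 genes and 0 of the 9. With EtOH + ABT-888 these transcripts had log2 -0.64, -0.83, -0.88 and -0.76 in that order, and 0 of 14072 genes (0.0%) were called, with or without the block. The likelihood ratio test and DESeq2 called 0 of the 9 in both interactions. Over all genes each called 16 with EtOH, and they called 6 and 4 with EtOH + ABT-888. Sult1a1 had -0.10 (95% interval -1.31 to 1.10) with EtOH and 0.55 (-0.55 to 1.65) with EtOH + ABT-888.

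The receptor and the proteins that serve it were described by 8 genes. They were listed with earlier results of these data known, so their values and calls against saline are a description and no independent evidence. No p-values are given for those contrasts. Nr3c1 was at 136, 147 and 139.8 CPM in Control_TRAP, 93.2, 101, 102 and 108 CPM in EtOH_TRAP and 115, 133, 114 and 91.1 CPM in EtOH + ABT-888_TRAP. All treated mice were below all Control mice, as they were for 1670 of all 14072 genes with EtOH and for 1090 with EtOH + ABT-888. The log2 fold changes of Nr3c1 were -0.46 (standard error 0.13) for EtOH and -0.30 (standard error 0.17) for EtOH + ABT-888, and neither was called. Nr3c2, the mineralocorticoid receptor, which binds corticosterone at lower levels, went the other way in EtOH_TRAP, at 0.44 (standard error 0.14), and was not called. In total-RNA the log2 fold changes of EtOH were -0.14 for Nr3c1 and 0.30 for Nr3c2, and neither was called. Fkbp4, a co-chaperone that competes with Fkbp5 for the receptor complex and favours its transport, was the single gene of the 8 to be called in these 4 contrasts with Control. In total-RNA it fell from 85.3, 77.8 and 77.8 CPM in Control to 55.9, 57.6, 60.4 and 55.1 CPM in EtOH mice, by -0.49 (standard error 0.10) on the log2 scale. Of all 14072 genes, 1210 were called lower in that contrast. In EtOH + ABT-888 mice Fkbp4 was at 76.9, 60.7, 56.3 and 52.3 CPM and was not called. Hsp90ab1 and Ptges3 of the chaperone complex, the coactivators Ncoa1 and Ncoa2, and Hsd11b1, which regenerates corticosterone from its inactive form, had log2 fold changes between -0.08 and 0.21 with EtOH in either pool and none was called. In Control mice Nr3c1 was lower in TRAP than in total-RNA, at log2 -0.42 (standard error 0.08), and Nr3c2 higher, at 0.33 (standard error 0.10) (adjusted p = 9.34e-04 and 0.0118), and Hsd11b1 was lower, at -3.55 (standard error 0.23) (adjusted p = 4.09e-07).

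A second list held 25 other genes known to be induced through the receptor, all of them past the filter. The list was made with earlier results of these data known, so its counts and values against saline, in both pools, are a description and no independent evidence of a rise, and no p-values are given. In EtOH_total-RNA 20 of the 25 rose and 0 fell, with a median log2 fold change of 1.12, where 9.04% of all genes rose by edgeR. The model of all libraries called 10 of the 25 and 105 of all genes higher. Bcl6, Ehd3, Litaf, Mertk and Nedd9 did not pass. The largest changes were those of Lcn2, Cebpd, Plin4, Map3k6 and Ddit4. Lcn2, an iron-binding protein of the acute phase, was at 0.748, 0.311 and 0 CPM in Control, 36.9, 15.9, 52.3 and 2.07 CPM in EtOH and 0.946, 45.4, 67.6 and 23.8 CPM in EtOH + ABT-888 mice in total-RNA, so that mice 9 and 3 were far below their groups. Cebpd, a transcription factor of the acute phase, stood at log2 2.98 (standard error 0.27) and Plin4, a coat protein of lipid droplets, 2.76 (standard error 0.49). Map3k6, a stress-activated kinase, had 1.87 (standard error 0.20) and Ddit4, an inhibitor of mTOR signalling, 1.79 (standard error 0.15). Cebpd and Plin4 overlap genes of the opposite strand.

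In EtOH_TRAP 7 of the 25 rose and 0 fell, with a median of 0.98, where 2.77% of all genes rose. The count was 1 without the Control library of mouse 1 (58 of all genes were called higher) or 7 (61), 2 without that of mouse 4 (55), 4 without the library of mouse 2 (356), and 11 with exactTest (723) and with DESeq2 (831). Lcn2 was at 0 in all 3 Control_TRAP libraries and at 4.80, 0.975, 3.34 and 0.408 CPM in EtOH_TRAP, at least 35.7-fold higher on average than the limit that 3 counts over the Control group allow, and the median of the list was the same with Lcn2 at this bound. The metallothioneins Mt2 and Mt1, small proteins that bind zinc and copper, had 2.06 (standard error 0.42) and 1.78 (standard error 0.23). Mt1 was at 78.4, 49.7 and 76.1 CPM in Control_TRAP and 331, 209, 219 and 168 CPM in EtOH_TRAP. Its change in total-RNA was 0.92 (standard error 0.23), so unlike the 9 transcripts its estimate was larger in TRAP. Plin4 had 3.03 (standard error 0.71) in TRAP, and Cebpd 1.42 (standard error 0.74), which does not pass. Mt2, like Cebpd and Plin4, overlaps a gene of the opposite strand. With EtOH + ABT-888, 2 of the 25, Ddit4 and Rhou, rose in total-RNA (0.178% of all genes did) and 4, Lcn2, Mt2, Mt1 and Arrdc3, in TRAP (0.185% of all genes), with medians of 1.00 and 0.84. Without the Control library of mouse 1, 4 or 7 or the library of mouse 6 or 11, 0 of the 25 and 0 of all genes were called in either pool. In total-RNA the count was 15 without mouse 3 (440 of all genes), 10 without mouse 10 (136), 17 with exactTest (343) and 15 with DESeq2 (393). In the interaction with EtOH the median of the 25 was -0.06. In Control mice 2 of the 25 were called higher in TRAP than in total-RNA and 14 lower, where 29.5% of all genes were higher and 30.4% lower. The plot of both pools sets the lists together.

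**Figure D5:**
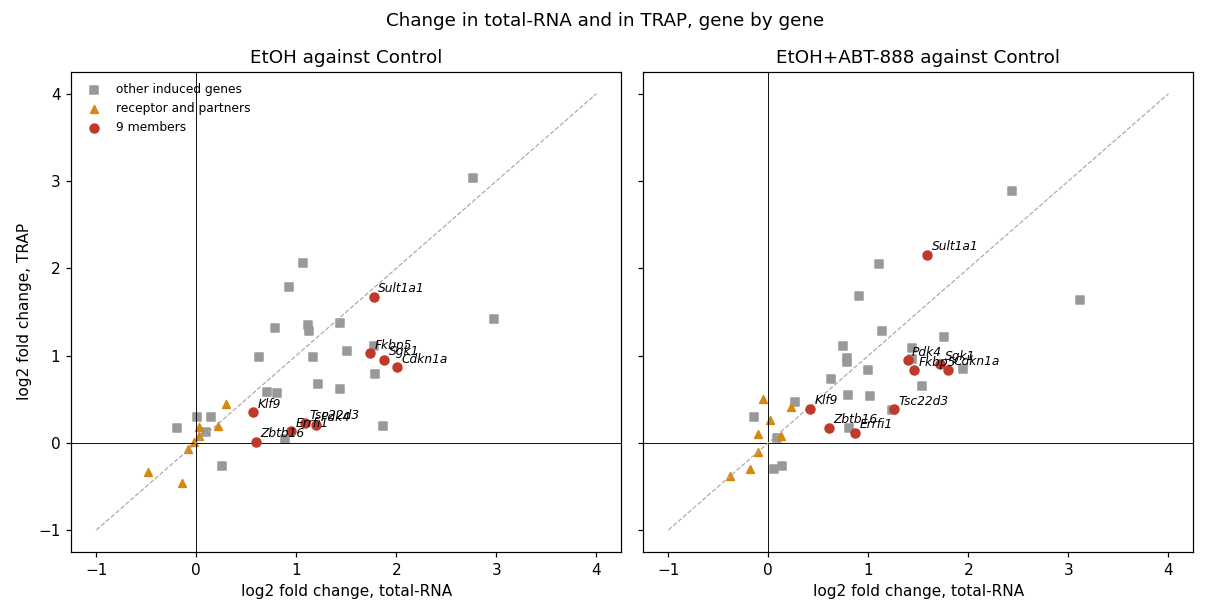
Log2 fold change against Control in total-RNA (x axis) and in TRAP (y axis) for EtOH (left) and EtOH + ABT-888 (right), for the 9 transcripts (red circles), 24 other induced genes (grey squares, Lcn2 left out because it is at 0 in Control_TRAP) and 8 genes of the receptor and its partners (orange triangles). Dashed lines mark equal change. With EtOH all 9 red points lie below the dashed line, while grey points lie on both sides.

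The members varied together across mice in total-RNA more closely than in TRAP. Over the 11 total-RNA libraries Pearson's r of each transcript with the mean of the other 8 lay between 0.85 (Klf9) and 0.97 (Sgk1), and over the 11 TRAP libraries between 0.28 (Errfi1) and 0.79 (Sgk1). These values include the shift with treatment that all 9 share, so they describe the libraries and carry no p-value. Among all other tested genes outside both lists, the 5 whose log2 CPM followed the mean of the 9 most closely in both pools were Tpst2 (r = 0.926 in TRAP and 0.891 in total-RNA), Spsb1 (0.839 and 0.964), Klf15 (0.843 and 0.960), Scn10a (0.849 and 0.947) and Smarcd2 (0.806 and 0.955). Klf15 is a Krüppel-like transcription factor of metabolic genes, Tpst2 an enzyme that sulfates tyrosines, and Scn10a a voltage-gated sodium channel.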

How the data were processed

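PFC of 11 mice was homogenized, and RNA was sequenced from the lysate (total-RNA, INPUT) and from the anti-EGFP pull-down (TRAP), after rRNA depletion, as paired-end reads. The authors aligned the reads to mm10 with STAR, and deposited the raw counts that featureCounts gave per ENSEMBL gene, whole reads without normalization; versions, strand setting and the treatment of multi-mapped reads are not given in the sources used here. Of 39056 gene IDs, 38872 were named through GENCODE for mm10 and 184 were not. The study's filter (at least 500 counts in all and detection in at least 3 libraries) kept 14072 genes.

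Counts were tested in R 4.3.3 with edgeR 4.0.16 (TMM factors, quasi-likelihood test, Benjamini-Hochberg adjustment over all 14072 genes, threshold 0.05) on the groups compared, and interactions over all 22 libraries. log2 CPM used a prior count of 1. RPKM divide CPM by summed exon length. Intervals are 95%. Code was tested on simulated data. Alternatives were exactTest, DESeq2 1.42.0, RLE factors, no filter, 1 model over all libraries, the likelihood ratio test (interactions), the mouse as a block and leaving out each library. Libraries with the same number come from 1 mouse by the labels, and their deviations from the group means correlated in all 11 mice (r between 0.10 and 0.62).

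The members, the list of 25 induced genes, the list of 8 receptor genes and the markers were chosen with earlier results of these data known. All members and receptor genes are named, with the 5 genes of the list of 25 that changed most with EtOH in each pool and the 5 genes most like the members' mean.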

Additional observations from a re-analysis of the deposited data

Results flagged for a closer look

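Within the 36 groups of 4 libraries that the 9 transcripts gave, 2 held a library far from the others. Chance alone marks about 1 in 20 such groups. Sgk1 in EtOH_total-RNA was at 264 CPM in mouse 5 and between 195 and 199 CPM in the other 3 mice, a gap of 0.942 of the whole range. Cdkn1a in EtOH + ABT-888_TRAP was at 34.1 CPM in mouse 11 and between 16.2 and 16.9 CPM in the other 3, a gap of 0.962 of the range. The TRAP library of mouse 11 also held the highest oligodendrocyte marker sum, 865 CPM, and its part in the value was not tested.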

How the results depend on the processing

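Counts of the 9 transcripts called against Control depended on the method most for EtOH + ABT-888. In total-RNA 3 were called, 8 with exactTest, with DESeq2 and with no filter on low counts, and between 0 and 8 when 1 library was left out. In TRAP 0 were called, 3 with exactTest, with DESeq2 and in 1 model over all libraries, 2 with no filter, and between 0 and 3 when 1 library was left out. For EtOH the count in TRAP was between 1 and 2 and in total-RNA between 8 and 9 without 1 library. The cause was not tested. The other counts stayed within 1.5 times the reported one.

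Estimates that changed sign when 1 library was left out were not called with all libraries. Against Control in TRAP they ranged from -0.00228 to 0.20 for Errfi1, -0.15 to 0.58 for Pdk4 and -0.28 to 0.24 for Zbtb16 with EtOH, and from -0.19 to 0.23 for Errfi1 and -0.0907 to 0.37 for Zbtb16 with EtOH + ABT-888. In TRAP of EtOH + ABT-888 set against EtOH mice they ranged from -0.37 to 0.22 for Cdkn1a, -0.33 to 0.11 for Errfi1, -0.14 to 0.15 for Klf9, -0.19 to 0.0482 for Sgk1 and -0.0697 to 0.45 for Zbtb16. In total-RNA they ranged from -0.80 to 0.0417 for Cdkn1a, -0.28 to 0.0294 for Errfi1, -0.41 to 0.00021 for Sgk1, -0.33 to 0.0310 for Sult1a1, -0.0180 to 0.29 for Tsc22d3 and -0.18 to 0.11 for Zbtb16. The interaction ranged from -0.22 to 0.19 for Klf9 with EtOH + ABT-888 and from -0.36 to 0.18 for Sult1a1 with EtOH.

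With the mouse as a replicate block, Sgk1 (log2 -0.46) and Errfi1 (-0.53) were called lower in TRAP than in total-RNA of EtOH + ABT-888 mice, at 9 of the 9 transcripts in place of 7, and the block changed no other call among the 9. Low counts limit Pdk4 and Sult1a1 in TRAP.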

Other observations

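Further genes of the list of 25 are named here after their values were seen, as a description. "Rose" is used of genes that edgeR called. The circadian regulator Per1, which glucocorticoids reset, rose with EtOH by 1.50 (standard error 0.29) on the log2 scale in total-RNA and by 1.05 (standard error 0.28) in TRAP. The TRAP call lay just inside the threshold, and EtOH_TRAP mouse 9 was at 75.1 CPM, within the Control range of 69.8 to 79.8 CPM. Nfkbia, the inhibitor of NF-kappaB, rose by 1.43 (standard error 0.16) and Dusp1, a phosphatase of MAP kinases, by 0.88 (standard error 0.21) in total-RNA, whereas their TRAP values were 0.61 (standard error 0.23) and 0.04 (standard error 0.22). Pnpla2, the lipase that opens triglyceride stores, was at 1.44 (standard error 0.22) in total-RNA and 1.37 (standard error 0.42) in TRAP. Gjb6, a connexin of astrocytes, rose by 0.63 (standard error 0.13) in total-RNA, beside astrocyte marker sums of 1024 to 1087 CPM in Control and 1004 to 1189 CPM in EtOH mice. The arrestin domain genes Arrdc2 and Arrdc3 rose by 1.77 (standard error 0.23) and 1.16 (standard error 0.13) in total-RNA.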
